A study of Mus musculus with 18 samples.

Results

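Prostaglandins, thromboxane and leukotrienes are lipid signals that cells make on demand from arachidonic acid, and the 10 genes described here encode enzymes of that synthesis. They were chosen by symbol, as the rows of the deposited count table whose Ensembl gene ID belongs to Pla2g4a, Ptgs1, Ptgs2, Ptges, Ptges2, Ptges3, Tbxas1, Alox5, Alox5ap or Lta4h. All 10 were found among the 56953 gene IDs of the table, and all 10 were among the 13068 genes that passed the filter on low counts. Cytosolic phospholipase A2 frees arachidonic acid from membranes, a cyclooxygenase turns it into the unstable prostaglandin H2, and terminal synthases convert that into prostaglandin E2 or thromboxane. A separate branch begins with 5-lipoxygenase and its partner protein and leads to the leukotrienes. In macrophages stimulated through Toll-like receptors, the inducible cyclooxygenase and the inducible prostaglandin E synthase are known to act in series, and the prostaglandin E2 they make acts back on the cells through receptors that raise cyclic AMP.

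The cells were bone marrow-derived macrophages (BMDMs), grown for 7 days in RPMI medium with 20% FBS and 30% L929 supernatant, which supplies the growth factor M-CSF. The 6 groups of 3 RNA-seq libraries were, by genotype, RIPK1 T169A mutant knock-in cells (T169A) and C57BL/6J cells (B6), each with LPS/5z7 for 2 hours, with LPS for 2 hours, or unstimulated. RIPK1 is a kinase of death receptor and innate immune signalling, LPS is the bacterial ligand of TLR4, and 5z7 is left unexplained by the labels, though it commonly stands for the TAK1 inhibitor 5Z-7-oxozeaenol. No dose is given for either agent, and no group had 5z7 without LPS. The sample titles repeat a letter across the 3 treatments of a genotype, but the columns of the count table carry running numbers without letters, so libraries were not paired in the tests reported here. It is not stated that replicate libraries derive from different mice or cultures, so p-values measure the spread between these libraries, which may be technical.

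Depth ran between 14.6 and 30.4 M counts per library, where 3 counts correspond to 0.205 and 0.0986 CPM (counts per M mapped counts). All 9 macrophage markers were measured, at 30900 to 53700 CPM summed over a library, and markers of B cells, T cells and eosinophils stayed at or below 0.155 CPM in sum. Ripk1 was not called different between genotypes in any condition, and counts per gene cannot show its point mutation. The genotypes also differed in sex-linked transcripts: Xist had 0 to 27 counts in the 9 T169A libraries and 6476 to 33428 counts in the 9 B6 libraries, while 4 genes of the Y chromosome (Ddx3y, Eif2s3y, Kdm5d and Uty) summed to 3078 to 6196 counts in T169A and 0 to 3 counts in B6. Genotype and the sex of the cells therefore cannot be told apart in these data. Levels below are CPM with TMM scaling (mean ± SD, n = 3 libraries). Changes are log2 fold changes ± SE from edgeR's quasi-likelihood test, and a gene is called when its p-value, adjusted by Benjamini-Hochberg over all 13068 genes tested, is below 0.05.

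LPS raised 4 of the 10 genes and lowered 2, in either genotype. Higher were Ptgs2, Ptges, Pla2g4a and Ptges3, and lower were Ptgs1 and Tbxas1. The leukotriene genes Alox5, Alox5ap and Lta4h were not called, and neither was Ptges2. Scaled by library size alone, which moved the median of all genes to -0.61 in T169A and -0.66 in B6 cells, the split was 4 higher and 5 lower in either genotype. These counts are set against a broad response, since 61.9% of all genes tested were called in T169A cells (30.3% higher, 31.5% lower) and 63.1% in B6 cells (29.6% higher, 33.5% lower). The median change of the 10 genes was -0.01 in T169A and 0.16 in B6 cells, beside medians over all genes of -0.03 in T169A and -0.07 in B6 cells. The share of the 10 called was thus close to that of all genes, and single members differed from it in the size of their change. Of 8 mast cell markers, whose cells also make these lipids, the summed level (CPM by library size) was 7.73 to 11.3 in LPS libraries and 0.205 to 0.603 in unstimulated ones. That difference came with Hdc, the 1 marker that passed the filter, while Cpa3, Fcer1a, Ms4a2 and Tpsb2 were at 0 in every group.

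Some markers of other cell types were also called with LPS under TMM scaling. Of 10 neutrophil markers, 7 passed the filter, of which S100a8, S100a9, Camp and Ngp were called higher in T169A (0.57 to 0.88 on the log2 scale), and these and Ltf in B6 cells (0.66 to 1.15). Their summed level by library size was 55.1 to 83.0 CPM with LPS and 61.8 to 81.7 CPM without in T169A cells, and 51.5 to 64.8 CPM with LPS and 49.9 to 60.0 CPM without in B6 cells, ranges that overlapped. Of 5 dendritic cell markers, the 1 tested, Zbtb46, was higher by 3.11 ± 0.34 in T169A and 2.83 ± 0.30 in B6, and the list summed to 1.33 to 1.92 CPM with LPS and 0.261 to 0.704 CPM without in T169A, and to 1.87 to 2.07 CPM with LPS and 0.751 to 0.913 CPM without in B6. Of the 3 platelet markers tested, Pf4 was called higher in T169A (0.79 ± 0.24) and none in B6. The 6 platelet markers listed summed to 192 to 307 CPM with LPS and 209 to 241 CPM without in T169A cells. In B6 cells the sum was 145 to 246 CPM with LPS and 158 to 329 CPM without. With LPS/5z7 it was 220 to 278 CPM in T169A and 170 to 193 CPM in B6 cells, without overlap. Of 3 fibroblast markers Col3a1 was called higher with LPS in T169A (0.90 ± 0.38) and none in B6. The log2 changes of these markers are given with TMM scaling only, while the sums are by library size. Library size alone moved the median of all genes with LPS from -0.03 to -0.61 in T169A and from -0.07 to -0.66 in B6 cells. The marker calls therefore depend on the scaling. The part of these markers in the changes of the 10 genes was not tested.

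Arachidonic acid is released chiefly by cytosolic phospholipase A2, the product of Pla2g4a (ENSMUSG00000056220, chromosome 1). Pla2g4a stood at 39.8, 30.3 and 28.6 CPM in the 3 T169A LPS libraries, against 11.9, 11.6 and 12 CPM in unstimulated T169A cells. In B6 cells it had 32.0, 30.2 and 31.8 CPM with LPS, against 11.4, 12.5 and 10.8 CPM without. Every LPS library lay above every unstimulated one. The rise was 1.48 ± 0.13 on the log2 scale in T169A (adjusted p = 3.53e-08) and 1.44 ± 0.13 in B6 cells (adjusted p = 5.23e-08), or 2.78-fold and 2.70-fold. Its size depended on the processing: over the other scalings, filters and fits the lowest value was 0.89 in T169A and 0.85 in B6, called in all of them. Pla2g4a and Ptgs2 are neighbours on mouse chromosome 1, on opposite strands and with no protein-coding gene between them in GENCODE M21.

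The cyclooxygenase step has a constitutive enzyme, encoded by Ptgs1 (ENSMUSG00000047250, chromosome 2), and an inducible enzyme, encoded by Ptgs2 (ENSMUSG00000032487, chromosome 1). Ptgs2 had 907, 710 and 675 CPM in T169A cells with LPS, against 2.35, 1.18 and 0.734 CPM in unstimulated T169A cells. In B6 cells it had 854, 844 and 818 CPM with LPS, against 1.55, 1.86 and 0.807 CPM in unstimulated cells. The groups lay far apart, and the rise was 9.07 ± 0.33 in T169A (537-fold, adjusted p = 3.49e-13) and 9.15 ± 0.33 in B6 cells (568-fold, adjusted p = 3.29e-13). Of the 13068 genes, Ptgs2 was the 20th most raised in T169A and the 17th in B6 cells. Its unstimulated level rests on 15 to 63 counts per library.

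Ptgs1 moved the other way. It had 18.2, 23.0 and 23.5 CPM in T169A LPS libraries, against 31.3, 41.9 and 42.1 CPM in unstimulated T169A libraries, and 17.0, 17.1 and 22.2 CPM in B6 LPS libraries, against 29.0, 29.5 and 39.7 CPM in unstimulated B6 libraries. The groups did not overlap within a genotype. The fall was -0.84 ± 0.18 in T169A (adjusted p = 0.000698) and -0.81 ± 0.18 in B6 cells (adjusted p = 0.000936). Levels of 2 genes can be compared only per length, so CPM were divided by the exonic length of each gene in kb, taken as the union of all its annotated exons. On that scale Ptgs2 made up 96.7% ± 0.872 of the sum of both cyclooxygenase transcripts in T169A cells with LPS and 3.26% ± 2.40 in unstimulated T169A cells. The share was 97.4% ± 0.462 with LPS and 3.70% ± 1.78 without in B6 cells (SD, n = 3 each).

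**Figure D1:**
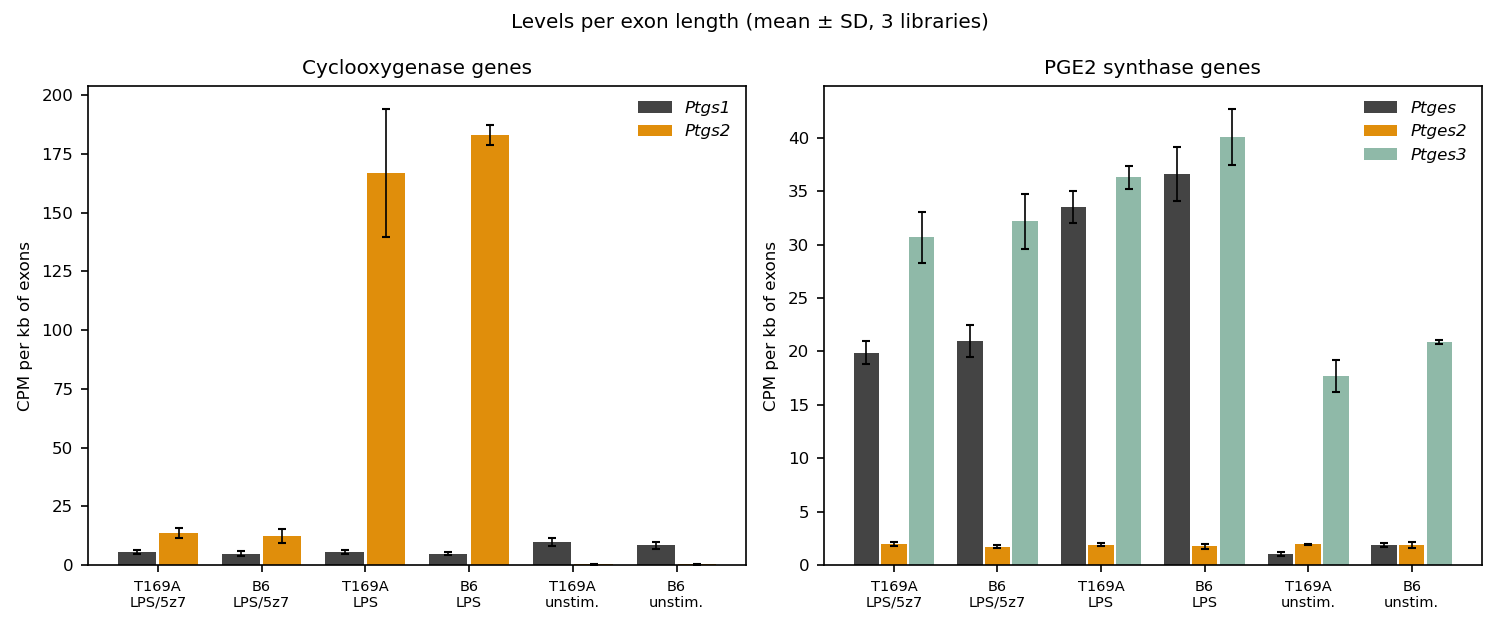
Levels of the cyclooxygenase genes (left) and the prostaglandin E2 synthase genes (right) in CPM per kb of exons, as bars of the mean of 3 libraries with error bars of 1 SD, for the 6 groups. Ptgs2 stood at 167 and 183 CPM per kb in T169A and B6 cells with LPS and at 0.31 and 0.307 CPM per kb in unstimulated T169A and B6 cells, where Ptgs1 was the higher of the pair.

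Promoter sequences are shown for both cyclooxygenase genes, which moved in opposite directions with LPS, and for Ptges, the other strongly raised gene. Each line holds the 250 bases before and the first 30 bases of the annotated start in RefSeq on GRCm38.p6, read 5′ to 3′ on the gene's strand. Ptgs1 lies at chr2:36230176-36230455 on the plus strand, Ptgs2 at chr1:150099781-150100060 on the plus strand, and Ptges at chr2:30903268-30903547 on the minus strand. Capitals mark matches to 1 of 7 motifs searched on both strands.
Ptgs2: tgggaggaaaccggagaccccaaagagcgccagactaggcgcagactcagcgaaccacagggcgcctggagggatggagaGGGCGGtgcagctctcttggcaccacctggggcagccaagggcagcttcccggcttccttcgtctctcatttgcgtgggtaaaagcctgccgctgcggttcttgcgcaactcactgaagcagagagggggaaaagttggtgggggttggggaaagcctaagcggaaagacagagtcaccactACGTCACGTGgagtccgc
Ptgs1: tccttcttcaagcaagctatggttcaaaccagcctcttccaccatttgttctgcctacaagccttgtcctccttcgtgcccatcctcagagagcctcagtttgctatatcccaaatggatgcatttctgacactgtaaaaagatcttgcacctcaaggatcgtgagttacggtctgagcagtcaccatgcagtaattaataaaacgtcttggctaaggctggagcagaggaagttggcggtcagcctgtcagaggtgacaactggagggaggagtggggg
Ptges: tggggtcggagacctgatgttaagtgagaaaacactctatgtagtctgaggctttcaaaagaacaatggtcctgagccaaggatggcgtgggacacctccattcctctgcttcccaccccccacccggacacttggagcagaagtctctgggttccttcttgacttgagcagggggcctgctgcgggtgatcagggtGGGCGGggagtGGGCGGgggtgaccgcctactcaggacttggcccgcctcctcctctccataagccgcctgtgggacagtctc

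The Ptgs2 window held a CRE core (TGACGT, here on the minus strand at positions +13 to +18), an E-box (CACGTG, +17 to +22, sharing 2 bases with the CRE core) and a GC box (GGGCGG, -170 to -165). The Ptges window held a pair of GC boxes, at -53 to -48 and -42 to -37, and the Ptgs1 window held no match to any motif searched. Over all 32851 mouse windows of the same length, 7.26% held the CRE core, 6.79% the E-box and 34.7% the GC box. The other motifs were the TATA box (TATAAA, 13.1% of windows), the string TTGCAA, searched as a C/EBP core (5.92%), an AP-1 site (TGANTCA, 7.46%) and the kappaB consensus (4.22%). None of them matched in these 3 windows. RefSeq windows were found for 9 of the 10 genes, all but Alox5ap. Among the others, Tbxas1 held the AP-1 motif and overlapping TATA boxes near its start, and Pla2g4a held a TATA box in 1 of its windows. Ptges2 held an E-box, and Ptges3 and Alox5 held GC boxes. Of the 9 genes, 4 held the GC box, 2 the E-box, 2 the TATA box, 1 the CRE core and 1 the AP-1 motif. The kappaB consensus and TTGCAA matched in none of the 9. A search for TTGCAA alone cannot show that a window lacks C/EBP sites of other sequence. The Ptgs2 window holds TTGCGCAA, which was not among the strings searched. A match describes letters in a window and does not show binding.

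Prostaglandin E2 is made by 3 synthases in this list. Ptges (ENSMUSG00000050737, chromosome 2) encodes the inducible microsomal enzyme, Ptges2 (ENSMUSG00000026820, chromosome 2) a second membrane-associated enzyme, and Ptges3 (ENSMUSG00000071072, chromosome 10) the cytosolic enzyme, which is also the HSP90 co-chaperone p23. Ptges had 127, 129 and 139 CPM in T169A cells with LPS, against 5.07, 3.49 and 3.79 CPM in unstimulated T169A cells. In B6 cells it had 143, 134 and 154 CPM with LPS, against 7.11, 8.24 and 7.10 CPM without. All LPS libraries lay far above all unstimulated ones, and the rise was 5.00 ± 0.13 in T169A (32.0-fold, adjusted p = 8.93e-15) and 4.26 ± 0.12 in B6 cells (19.1-fold, adjusted p = 2.24e-14).

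Ptges3 rose by far less. It had 80.5 ± 2.40 CPM with LPS and 39.2 ± 3.26 CPM without in T169A cells (1.04 ± 0.09, adjusted p = 1.16e-08), and 88.8 ± 5.81 CPM with LPS and 46.4 ± 0.477 CPM without in B6 cells (0.94 ± 0.09, adjusted p = 4.16e-08). Over the other scalings, filters and fits the lowest rise of Ptges3 was 0.46 in T169A and 0.35 in B6, called in all of them. Ptges2 had 9.66 ± 0.814 CPM with LPS and 9.88 ± 0.209 CPM without in T169A cells, and 8.86 ± 1.08 CPM with LPS and 9.42 ± 1.53 CPM without in B6 cells. Its groups overlapped and it was not called (adjusted p = 0.82 in T169A and 0.565 in B6 cells). Per kb of exons, Ptges supplied 46.7% ± 1.55 of the 3 synthase transcripts in T169A cells with LPS and 5.03% ± 0.614 in unstimulated ones. In B6 cells its share was 46.7% ± 3.23 with LPS and 7.71% ± 0.73 without. Ptges3 has 1 named pseudogene and Ptges overlaps the pseudogene Gm13400, and how reads matching several genes were counted is not given in the sources used here, so the levels of these genes carry that uncertainty.

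Thromboxane A synthase is encoded by Tbxas1 (ENSMUSG00000029925, chromosome 6), which macrophages are known to express. Its level was 95.9, 115 and 113 CPM in T169A cells with LPS, against 133, 144 and 145 CPM in unstimulated T169A cells. In B6 cells it was 89.4, 94.8 and 107 CPM with LPS, against 123, 129 and 147 CPM without. The groups did not overlap, and Tbxas1 fell by 0.38 ± 0.10 on the log2 scale in T169A (adjusted p = 0.003) and by 0.45 ± 0.10 in B6 cells (adjusted p = 0.00071). Tbxas1 shares part of its span with Hipk2 on the opposite strand, and the strand setting of the counting is not given in the sources used here.

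The leukotriene genes were uneven in level and changed little. Alox5ap (ENSMUSG00000060063, chromosome 5) encodes FLAP, the membrane protein that hands arachidonic acid to 5-lipoxygenase, and Lta4h (ENSMUSG00000015889, chromosome 10) encodes the hydrolase that makes leukotriene B4. Alox5ap had 141, 178 and 187 CPM with LPS, against 159, 166 and 171 CPM without in T169A cells, and 124, 140 and 162 CPM with LPS, against 146, 137 and 208 CPM without in B6 cells. Neither difference was called (0.03 ± 0.15, adjusted p = 0.877 in T169A and -0.20 ± 0.15, adjusted p = 0.244 in B6 cells). Lta4h had 43.0 ± 1.88 CPM with LPS and 47.5 ± 1.47 CPM without in T169A cells, and 42.1 ± 1.36 CPM with LPS and 47.2 ± 3.17 CPM without in B6 cells. Its groups did not overlap, yet the difference was not called (-0.14 ± 0.08, adjusted p = 0.123 in T169A and -0.16 ± 0.08, adjusted p = 0.0745 in B6 cells).

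Alox5 (ENSMUSG00000025701, chromosome 6), the 5-lipoxygenase gene itself, was near the limit of detection. It had 2 to 21 counts per library, with group means between 0.303 and 0.745 CPM over the 6 groups. No difference was called, and at this depth only large changes could be. Alox5ap was, per kb of exons, the most abundant of the 10 genes in 4 of the 6 groups (96.6 to 118 CPM per kb) and came after Ptgs2 with LPS, while Alox5 was the lowest in all 6 groups (0.0737 to 0.182 CPM per kb). Alox5ap overlaps an antisense gene, Gm19719. Scaling by library size alone put Alox5ap at -0.55 in T169A cells with LPS (adjusted p = 0.00402) and at -0.80 in B6 cells (adjusted p = 0.000182), and it also lowered Lta4h and Ptges2 past the threshold.

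**Figure D2:**
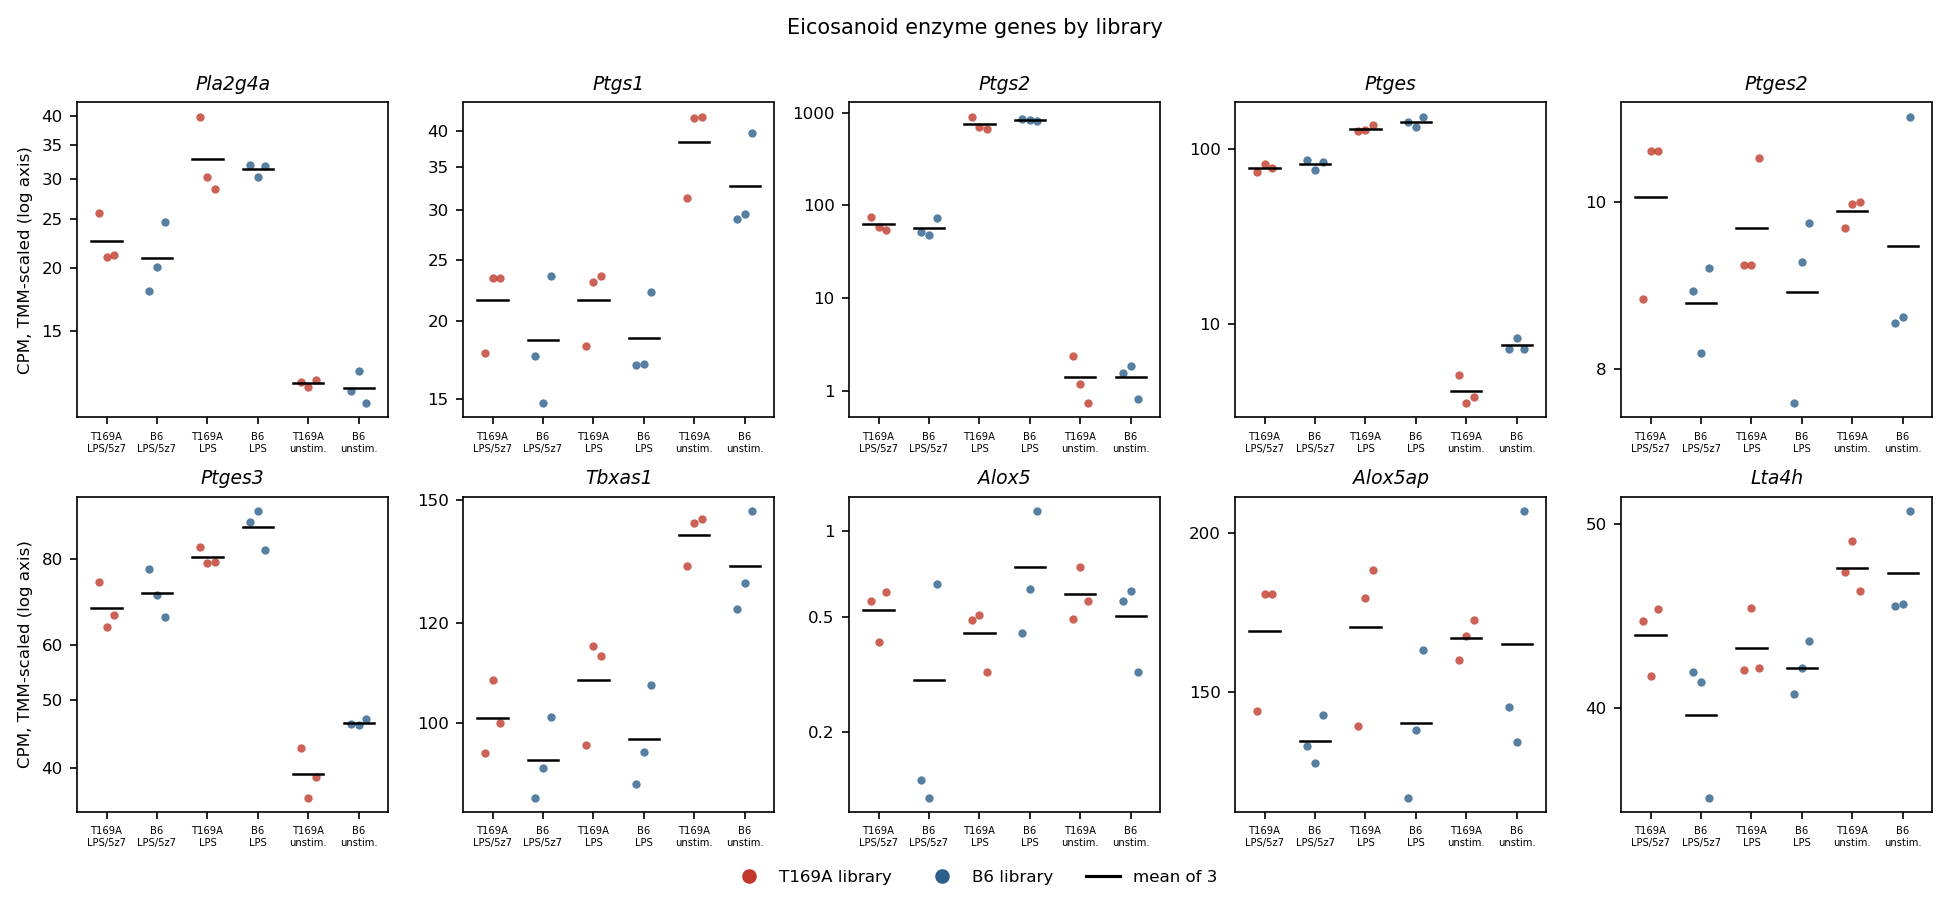
CPM (TMM-scaled, log axis with a range of its own in each panel) of the 10 genes in each of the 18 libraries; points are libraries, red for T169A and blue for B6, and lines are means of 3. Ptgs2, Ptges, Pla2g4a and Ptges3 stood higher in all LPS libraries than in all unstimulated libraries of the same genotype, Ptgs1 and Tbxas1 stood lower, and Alox5 stayed below 1.2 CPM throughout.

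With 5z7 added to LPS, 3 of the 10 genes were called lower in T169A cells and 4 in B6 cells, and none higher. Over all genes 13% were called in T169A (6.50% higher, 6.53% lower) and 13.8% in B6 cells (7.03% higher, 6.79% lower). The genes that fell were Ptgs2, Ptges and Pla2g4a in either genotype, and Ptges3 in B6 cells. All had risen with LPS. LPS/5z7 is compared with the same LPS libraries that enter the comparison above, so the directions of these comparisons are not independent of each other. The median change of the 10 genes was -0.05 in T169A and -0.20 in B6 cells, beside 0.02 over all genes in either genotype.

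Ptgs2 had 74.4, 58.1 and 54.7 CPM in T169A cells with LPS/5z7, against 907, 710 and 675 CPM with LPS. In B6 cells it had 51.1, 47.8 and 72.6 CPM with LPS/5z7, against 854, 844 and 818 CPM with LPS. The change was -3.61 ± 0.25 in T169A (12.2-fold lower, adjusted p = 4.19e-08) and -3.88 ± 0.25 in B6 cells (14.7-fold lower, adjusted p = 2.62e-08), the 12th largest fall of 13068 genes in T169A and the 9th largest in B6 cells. The level left was 8.17% of that with LPS in T169A and 6.82% in B6 cells. It was still 43.9-fold above unstimulated T169A cells (5.46 ± 0.30, adjusted p = 7.81e-11) and 38.7-fold above unstimulated B6 cells (5.27 ± 0.30, adjusted p = 1.18e-10).

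Ptges kept far more of its level. It had 74.0, 82.3 and 78.0 CPM in T169A cells with LPS/5z7, against 127, 129 and 139 CPM with LPS, and 86.6, 75.8 and 84.8 CPM in B6 cells with LPS/5z7, against 143, 134 and 154 CPM with LPS. No library of one treatment reached the range of the other. The change was -0.75 ± 0.10 in T169A (adjusted p = 8.75e-05) and -0.80 ± 0.10 in B6 cells (adjusted p = 4.75e-05), which left 59.3% of the LPS level in T169A and 57.3% in B6 cells. The level with LPS/5z7 was 19.0-fold above unstimulated T169A cells and 11-fold above unstimulated B6 cells.

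Pla2g4a had 25.7, 21.0 and 21.2 CPM in T169A cells with LPS/5z7, against 39.8, 30.3 and 28.6 CPM with LPS, and 18, 20.1 and 24.7 CPM in B6 cells with LPS/5z7, against 32.0, 30.2 and 31.8 CPM with LPS. The groups did not overlap, and the change was -0.54 ± 0.13 in T169A (adjusted p = 0.00987) and -0.59 ± 0.13 in B6 cells (adjusted p = 0.00589). In T169A the call was lost when LPS library 11 was left out (-0.38, adjusted p = 0.0664), and likewise on omitting library 15 (-0.49, adjusted p = 0.0549) or 18 (-0.50, adjusted p = 0.0521) of the LPS/5z7 group. About the same share of the LPS level was left in both genotypes, 68.8% in T169A and 66.8% in B6 cells.

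Ptges3 had 68.1 ± 5.28 CPM with LPS/5z7 and 80.5 ± 2.40 CPM with LPS in T169A cells, where the difference of -0.24 ± 0.08 was not called by edgeR (adjusted p = 0.0725) and was called by DESeq2 (adjusted p = 0.0223), which called 4 of the 10 genes in T169A. In B6 cells it had 71.4 ± 5.71 CPM with LPS/5z7 and 88.8 ± 5.81 CPM with LPS and was called lower (-0.32 ± 0.08, adjusted p = 0.0195). This call in B6 was lost without LPS library 5 (adjusted p = 0.0715) and without LPS/5z7 library 9 (adjusted p = 0.0739), and the one in T169A was gained without LPS/5z7 library 12 (adjusted p = 0.0368). Whether 5z7 acted on Ptges3 differently in the genotypes was tested directly, and the difference of 0.07 ± 0.12 was not called (adjusted p = 1.0).

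Ptgs1 and Tbxas1, which LPS lowered, stayed at their LPS level. Ptgs1 had 21.5 ± 3.23 CPM with LPS/5z7 and 21.6 ± 2.94 CPM with LPS in T169A cells, and 18.7 ± 4.46 CPM with LPS/5z7 and 18.7 ± 2.96 CPM with LPS in B6 cells, with changes of 0.00 ± 0.19 in either. Tbxas1 had 101 ± 6.92 CPM with LPS/5z7 and 108 ± 10.5 CPM with LPS in T169A cells, and 93.5 ± 7.06 CPM with LPS/5z7 and 97.2 ± 9.15 CPM with LPS in B6 cells. Both remained lower with LPS/5z7 than in unstimulated cells of the same genotype (Ptgs1 adjusted p = 0.000798 in T169A and 0.00122 in B6, Tbxas1 adjusted p = 0.000593 in T169A and 0.000322 in B6). With Ptgs2 reduced and Ptgs1 not, Ptgs2 made up 70.8% ± 6.30 of the cyclooxygenase transcripts per kb in T169A cells with LPS/5z7 and 72.2% ± 1.10 in B6 cells.

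Against unstimulated cells, LPS/5z7 left 4 of the 10 genes higher and 2 lower in T169A cells, and 4 higher and 3 lower in B6 cells, beside 55.6% of all genes called in T169A (28.1% higher, 27.5% lower) and 55.5% in B6 (27.6% higher, 27.9% lower). With library size alone the split was 4 higher and 5 lower in T169A, and 4 higher and 6 lower in B6. The seventh in B6 was Lta4h, with 41.8, 41.3 and 35.9 CPM with LPS/5z7, against 45.3, 45.4 and 50.8 CPM without stimulation (-0.25 ± 0.08, adjusted p = 0.0122). That call was lost without LPS/5z7 library 9 (adjusted p = 0.0509), with no filter on low counts (adjusted p = 0.0626) and in a fit of these groups alone (adjusted p = 0.158). Alox5 in B6 cells had 3, 2 and 11 counts with LPS/5z7, against 11, 16 and 15 counts with LPS, and was not called (-1.24 ± 0.52, adjusted p = 0.135), but was called without LPS/5z7 library 9 (-2.40, adjusted p = 0.0114). Against unstimulated B6 cells Alox5 was at -0.84 ± 0.52 (adjusted p = 0.186), and without that library at -2.00 (adjusted p = 0.00716), so that Alox5 took the place of Lta4h among the 7 called. In T169A cells Alox5 had 15, 8 and 10 counts with LPS/5z7, against 12, 8 and 5 counts with LPS.

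**Figure D3:**
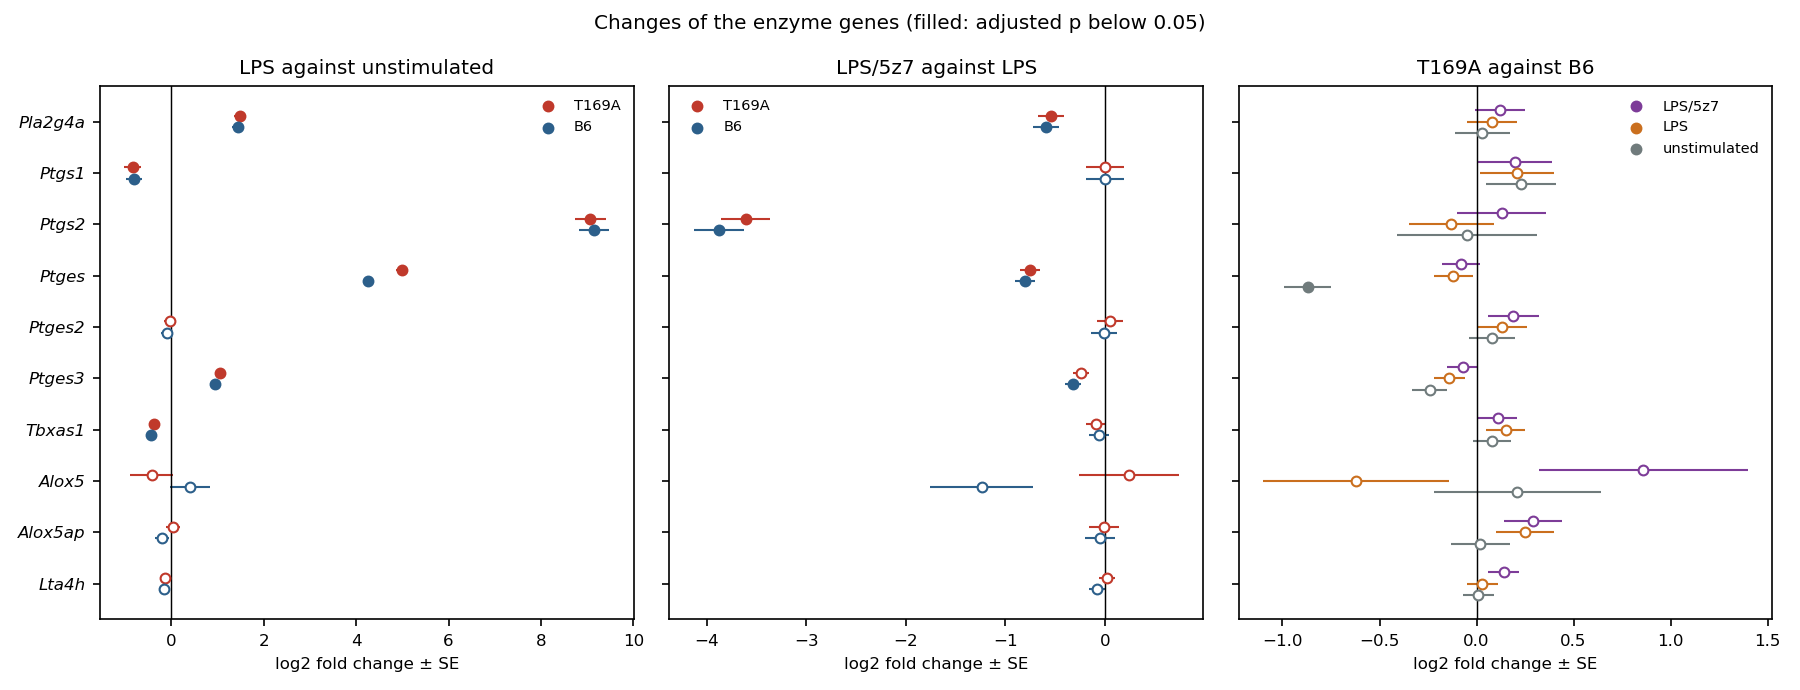
Log2 fold changes of the 10 genes with error bars of 1 SE, for LPS against unstimulated (left), LPS/5z7 against LPS (middle) and T169A against B6 (right); filled symbols have an adjusted p below 0.05 in edgeR's quasi-likelihood test. The symbols of T169A and B6 lie close together for Ptgs2 (9.07 and 9.15 with LPS, -3.61 and -3.88 with 5z7), and Ptges in unstimulated cells is the only filled symbol between the genotypes.

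Between genotypes, edgeR called 1 of the 10 genes in unstimulated cells and none with LPS or LPS/5z7. Ptges had 5.07, 3.49 and 3.79 CPM in unstimulated T169A cells, against 7.11, 8.24 and 7.10 CPM in unstimulated B6 cells. The ranges did not overlap, and Ptges was 1.82-fold lower in T169A (-0.87 ± 0.12, adjusted p = 0.00177), 1 of 28 genes called between the genotypes (0.214% of those tested, 0.0765% higher and 0.138% lower). The call held with any library left out (adjusted p between 0.000208 and 0.0217) and was lost in a fit of the 6 unstimulated libraries alone, where the difference was of the same size (-0.87, adjusted p = 0.513). After LPS, Ptges stood at 132 ± 5.90 CPM in T169A and 144 ± 9.92 CPM in B6 cells (-0.12 ± 0.10, adjusted p = 0.876), and with LPS/5z7 at 78.1 ± 4.12 CPM in T169A and 82.4 ± 5.81 CPM in B6 cells (-0.08 ± 0.10, adjusted p = 0.815).

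The difference of the LPS effect on Ptges, T169A minus B6, was 0.74 ± 0.16 and was not called by edgeR (adjusted p = 0.916) or DESeq2. That of the LPS/5z7 effect was 0.79 ± 0.16, not called by edgeR (adjusted p = 0.83) and called by DESeq2 (adjusted p = 0.0083), which called 2 genes in that test. The same unstimulated libraries enter both tests. Of 10 neutrophil markers, 7 were tested and none was called between the genotypes, with none at 0 in unstimulated cells. Their sum was 61.8 to 81.7 CPM in unstimulated T169A libraries and 49.9 to 60.0 CPM in unstimulated B6 libraries, without overlap. The sums of the genotypes overlapped with LPS (55.1 to 83.0 CPM in T169A and 51.5 to 64.8 CPM in B6). They also overlapped with LPS/5z7 (53.8 to 78.3 CPM in T169A and 38.3 to 59.2 CPM in B6). Of 5 fibroblast markers listed, 3 were tested and none was called. Their sum was 6.18 to 12.9 CPM in unstimulated T169A and 3.76 to 7.25 CPM in unstimulated B6 libraries, with none at 0. These ranges overlapped. Col3a1 averaged 0.664 CPM in unstimulated T169A and 0.276 CPM in unstimulated B6 cells without overlap (1.31 ± 0.46, adjusted p = 0.634), and with LPS 1.2 CPM in T169A and 0.445 CPM in B6 cells (1.56 ± 0.42, adjusted p = 0.301). The part of both marker lists in the Ptges result, and that of the sex-linked transcripts given above, was not tested. In bulk RNA, fewer cells that express a gene and less RNA per cell cannot be told apart.

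No other gene of the 10 was called between genotypes. With LPS, edgeR called 0 of 10 (0 at an unadjusted p below 0.05, 0 by DESeq2) beside 0.222% of all genes (0.0842% higher, 0.138% lower), and with LPS/5z7 it also called 0 of 10 (0 unadjusted, 0 by DESeq2) beside 0.161% (0.0612% higher, 0.0995% lower). Ptgs2 stood at 764 ± 125 CPM in T169A and 839 ± 19.0 CPM in B6 cells with LPS (-0.13 ± 0.22, adjusted p = 0.888), and at 62.4 ± 10.5 CPM in T169A and 57.2 ± 13.4 CPM in B6 cells with LPS/5z7 (0.13 ± 0.23, adjusted p = 0.851). Ptges3 in unstimulated cells had 42.7, 36.2 and 38.7 CPM in T169A, against 46.3, 46.0 and 47.0 CPM in B6, ranges that did not overlap but a difference that was not called (-0.24 ± 0.09, adjusted p = 0.636). In the 3 tests of whether an effect differed between genotypes, edgeR called no gene at all (0.0%), and of the 10 it found 1 at an unadjusted p below 0.05 for LPS (Ptges), 0 for 5z7 with LPS and 1 for LPS/5z7 (Ptges).

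Around these enzymes stand the other genes of the pathway, a list of 58 of which 37 passed the filter on low counts. With LPS, 13 of the 37 rose and 8 fell in T169A cells, and 12 rose and 11 fell in B6 cells, with median changes of 0.09 in T169A and -0.02 in B6. Over all genes tested, 61.9% were called in T169A (30.3% higher, 31.5% lower) and 63.1% in B6 cells (29.6% higher, 33.5% lower). The share of the 37 called was close to these, and the counts by role below stand beside the same shares. With library size alone the split was 8 higher and 23 lower in T169A, and 8 higher and 25 lower in B6. That scaling moved the median of all genes to -0.61 in T169A and -0.66 in B6 cells. Of 13 phospholipases and other genes of substrate supply, 5 rose and 4 fell in T169A and 2 rose and 6 fell in B6. Pla2g15, the gene of lysosomal phospholipase A2, had 71.1 ± 3.92 CPM with LPS and 222 ± 12.5 CPM without in T169A cells (-1.65 ± 0.10, adjusted p = 3.67e-10) and 64.5 ± 8.01 CPM with LPS and 219 ± 26.9 CPM without in B6 cells (-1.77 ± 0.11, adjusted p = 1.55e-10). Dagla and Daglb, which encode the lipases that make 2-arachidonoylglycerol, fell by 2.15 ± 0.14 and 1.11 ± 0.08 in T169A and by 1.91 ± 0.14 and 1.11 ± 0.08 in B6 cells. Pla2g6, encoding a calcium-independent phospholipase, fell as well (-1.27 ± 0.20 in T169A and -1.07 ± 0.19 in B6).

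Of 8 other synthases none rose. Hpgds, encoding the haematopoietic prostaglandin D synthase, had 172 ± 12.5 CPM with LPS and 279 ± 14.9 CPM without in T169A cells (-0.70 ± 0.08, adjusted p = 6.92e-07), and 176 ± 5.84 CPM with LPS and 267 ± 19.0 CPM without in B6 cells (-0.60 ± 0.08, adjusted p = 3.67e-06). Cotl1, encoding a protein that binds 5-lipoxygenase, and Gpx4, a lipid peroxidase gene, were the most abundant genes not called. Cotl1 changed by -0.15 ± 0.17 in T169A and -0.28 ± 0.17 in B6, and Gpx4 by -0.06 ± 0.21 in T169A and -0.43 ± 0.21 in B6. Of 8 genes of breakdown, uptake and export, 2 rose and 3 fell in T169A and 3 rose and 3 fell in B6. Abcc1, whose product exports leukotriene C4, rose by 1.33 ± 0.20 in T169A and 1.55 ± 0.20 in B6. Dpep2, a dipeptidase gene of leukotriene D4 breakdown, rose by 1.02 ± 0.12 in T169A and 1.13 ± 0.11 in B6. The symbol Dpep2 has another, overlapping gene ID, and only the ID with the longer exonic length was used.

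Of 6 receptor genes that passed the filter, 4 rose in T169A cells and 5 in B6 cells, with none lower under TMM, while Cysltr1 was lower with library size alone (-0.48 in T169A and -0.49 in B6). Ptger2 and Ptger4 encode the prostaglandin E2 receptors EP2 and EP4, which raise cyclic AMP. Ptger2 had 25.6, 28.5 and 29.5 CPM in T169A LPS libraries, against 10.8, 10.4 and 9.26 CPM unstimulated, and 26.1, 27.0 and 31.0 CPM in B6 LPS libraries, against 11.1, 12 and 9.90 CPM unstimulated. It rose by 1.45 ± 0.10 in T169A (adjusted p = 1.28e-09) and 1.34 ± 0.10 in B6 (adjusted p = 3.24e-09), with no overlap between groups. Ptger4 was higher by 0.67 ± 0.14 in T169A (adjusted p = 0.000381) and 0.37 ± 0.14 in B6 (adjusted p = 0.026), but with library size alone by 0.09 in T169A and -0.22 in B6, neither called. Ptger2, Ptgir and Fpr2 kept their direction and call under that scaling in either genotype.

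Fpr2, which encodes a receptor for formyl peptides and lipoxin, rose most of the list. It had 67.8 ± 2.80 CPM with LPS and 3.01 ± 0.594 CPM without in T169A cells (4.49 ± 0.21, adjusted p = 7.54e-12), and 78.2 ± 12.5 CPM with LPS and 4.56 ± 1.43 CPM without in B6 cells (4.12 ± 0.20, adjusted p = 1.46e-11). Anxa1, encoding annexin A1, an inhibitor of phospholipase A2 activity and a ligand of formyl peptide receptors, rose by 1.42 ± 0.08 in T169A and 1.30 ± 0.08 in B6. S100a10, the gene of an annexin partner, rose by 1.64 ± 0.15 in T169A and 1.35 ± 0.15 in B6. Of the 8 receptor genes that did not pass the filter, Ptgdr had no count in any library, and Tbxa2r and Ptgdr2 had at most 1 count in a library. The thromboxane receptor gene was thus at the floor in the same cells in which Tbxas1 reached 141 ± 6.91 CPM.

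With 5z7 added to LPS, 2 of the 37 were higher and 4 lower in T169A cells, and 1 higher and 4 lower in B6 cells. Over all genes 13% were called in T169A (6.50% higher, 6.53% lower) and 13.8% in B6 cells (7.03% higher, 6.79% lower). The share of the 37 called, both directions together, was close to that of all genes. With library size alone the split was 6 higher and 2 lower in T169A, and 5 higher and 1 lower in B6. That scaling moved the median of all genes to 0.17 in T169A and 0.18 in B6 cells. Under TMM scaling Ptger2 returned most of the way to its unstimulated level. It had 13.6, 12.4 and 13.3 CPM in T169A cells with LPS/5z7, against 25.6, 28.5 and 29.5 CPM with LPS (-1.09 ± 0.10, adjusted p = 1.25e-06). In B6 cells it had 12.5, 11.4 and 10.9 CPM with LPS/5z7, against 26.1, 27.0 and 31.0 CPM with LPS (-1.27 ± 0.10, adjusted p = 2.51e-07). Against unstimulated cells, Ptger2 with LPS/5z7 was called higher in T169A (0.37) and stood at 0.08 in B6. With library size alone it was at -0.06 in T169A (adjusted p = 0.624) and at -0.35 in B6 (adjusted p = 0.00677). Ptger4 had 68.7 ± 0.495 CPM with LPS/5z7 and 69.3 ± 2.26 CPM with LPS in T169A cells, and 69.0 ± 14.8 CPM with LPS/5z7 and 73.1 ± 8.95 CPM with LPS in B6 cells, and was not called. Anxa1 fell by 0.27 ± 0.08 in T169A (adjusted p = 0.0436) and 0.32 ± 0.08 in B6 (adjusted p = 0.0166), calls that were lost with library size alone (-0.11 in T169A and -0.16 in B6). Plaat3, encoding a phospholipase that acts on organelle membranes, was higher with LPS/5z7 by 0.59 ± 0.16 in T169A (adjusted p = 0.0182) and 0.68 ± 0.16 in B6 (adjusted p = 0.00795). Ptgir, the prostacyclin receptor gene, was called higher in T169A (0.63 ± 0.18, adjusted p = 0.0307), and Cysltr1 (-0.49 ± 0.12) and Acsl4 (-0.66 ± 0.20) were called lower there. In B6 cells Dpep2 (-0.38 ± 0.11) and Ptgr2 (-0.25 ± 0.08), a prostaglandin reductase gene, were called lower. With library size alone the calls of Dpep2 (-0.22, adjusted p = 0.202) and Ptgr2 (-0.08, adjusted p = 0.499) in B6 and of Acsl4 in T169A (-0.50, adjusted p = 0.0698) were lost, while those of Ptgir and Cysltr1 in T169A held.

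The number of calls depended on single libraries. In T169A cells the 6 called became 1 to 4 on leaving out any 1 library of the groups compared. The number was 3 or 2 without library 11 or 14 of the LPS group, and 2 or 1 without library 15 or 18 of the LPS/5z7 group. In B6 cells the 5 called became 3 on omitting library 2 (LPS) or 3 (LPS/5z7). None of the 37 genes was called between genotypes by edgeR or DESeq2 in any condition (5, 1 and 3 at an unadjusted edgeR p below 0.05 for unstimulated, LPS and LPS/5z7), including the X-linked Acsl4 and Cysltr1.

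**Figure D4:**
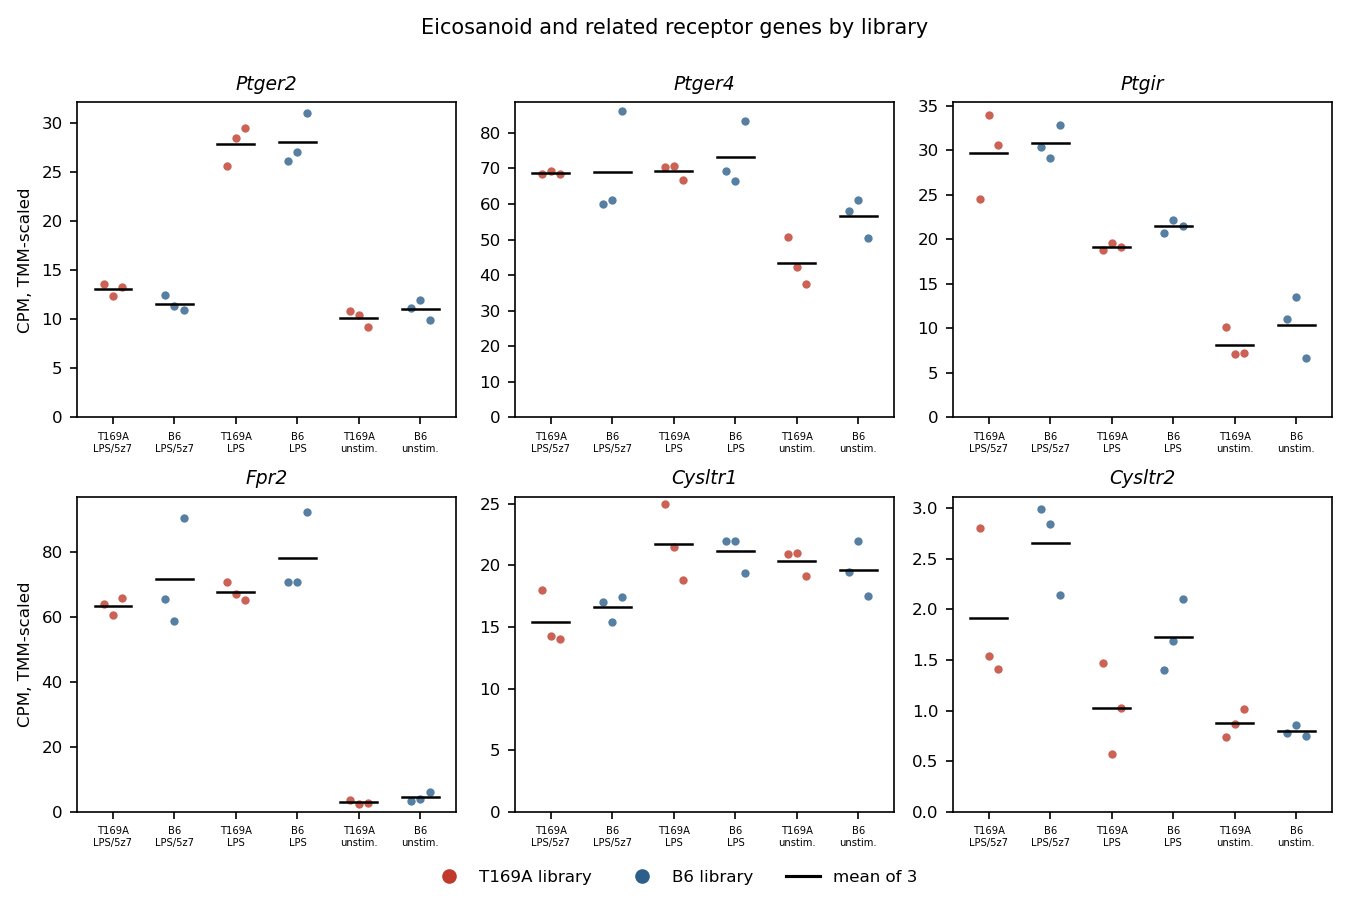
CPM (TMM-scaled, linear axis from 0) of the 6 receptor genes that passed the filter, in each library; points are libraries, red for T169A and blue for B6, and lines are means of 3. Ptger2 lay at 25.6 to 31.0 CPM with LPS and at 10.9 to 13.6 CPM with LPS/5z7, while Ptger4 and Fpr2 overlapped between these treatments and Ptgir was highest with LPS/5z7.

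For the 2 members that changed at least 4-fold, the genes with the most similar pattern over the 6 groups were sought among 7828 genes with a mean of at least 10 CPM, by Euclidean distance between centred log2 CPM means. Nearest to Ptgs2 were Il1a (distance 0.512), Il1b (1.26) and Cxcl3 (1.53). Il1a averaged 172, 2460 and 3.16 CPM in T169A cells with LPS/5z7, with LPS and unstimulated, and 184, 2660 and 4.09 CPM in B6 cells in that order. Nearest to Ptges were Ifi211 (0.535), Malt1 (0.589) and Stx11 (0.589). Ranking by Pearson correlation instead kept Il1a for Ptgs2 and none of the 3 for Ptges. With 6 group means, 2 of them unstimulated, the ranking describes these libraries and carries no test.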

How the data were processed

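RNA-seq was made with directional TruSeq libraries of total RNA from 18 samples in 6 groups. The authors deposited a table of raw read counts per gene; the submitters' processing notes name featureCounts, STAR, Trim Galore and the build GRCm39, with versions and the strand setting not given in the sources used here. Columns name the genotype and treatment with a running number, by which libraries are called here. Symbols, gene lengths and overlaps came from GENCODE M21 (GRCm38), which matched 52029 of 56953 IDs (91.4%), so no gene coordinates are given, and promoter sequences came from RefSeq.

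Genes were filtered with filterByExpr and tested with edgeR 4.0.16 in R 4.3.3 (TMM, robust quasi-likelihood fit of 6 group means over 18 libraries, 12 residual degrees of freedom) in 12 comparisons, with Benjamini-Hochberg adjustment over 13068 genes within each. The script was checked on simulated data. CPM per kb used the exonic length, the union of all annotated exons of a gene (1.42 kb for Alox5ap and 9.09 kb for Tbxas1). That length can exceed the transcript that is expressed, so orders and shares per kb depend on it. Precision reflects counting error and the spread of 3 libraries, and 3 counts were taken as the floor. Tables were made with pandas 2.3.3 and figures with matplotlib 3.10.9.

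The 10 members and the pathway, marker and motif lists were chosen with earlier results of these data known. All members are named; of the 58 other pathway genes, those named are at most the 6 called genes with the smallest p per direction and comparison, and the 2 most abundant uncalled ones. Ptger4, Ptgdr, Ptgdr2 and Tbxa2r, beside values of Ptgir, Cysltr1 and Fpr2 in the plot of receptors, were added after their values were seen. Alternatives were DESeq2 1.42.0, other scalings and filters, fits of the compared groups alone, a replicate block and leaving out each library.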

Additional observations from a re-analysis of the deposited data

How the results depend on the processing

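Scaling by library size alone reversed 3 values: Alox5ap with LPS in T169A (-0.55, against 0.03), and Ptges2 (-0.41, against 0.02) and Alox5ap (-0.40, against 0.02) with LPS/5z7 against unstimulated T169A cells. With the compared groups alone, 0 of the 10 genes were called between unstimulated genotypes, against 1. DESeq2 called 1 for the difference in the LPS/5z7 effect, against 0. Leaving out each library gave 2 to 4 called with 5z7 in T169A (3 in full), 3 to 4 in B6 (4 in full), and no other change in these counts, although Alox5 and Lta4h changed places in B6 without LPS/5z7 library 9. With no filter, Ptges3 with 5z7 in B6 missed the threshold (adjusted p = 0.0505), and with library size alone it did too (adjusted p = 0.197). DESeq2 called Ptges3 lower with 5z7 in T169A (adjusted p = 0.0223). The columns carry no replicate letter, so libraries could not be paired by the letters of the titles. With consecutive running numbers taken as a replicate block, a pairing the column names do not give, Ptges3 with 5z7 in T169A was -0.24 (adjusted p = 0.0238), and 4 of the 10 genes were called there. Deviations of these numbers correlated at -0.04 to 0.38. In the pathway list, 8 genes were called with 5z7 in B6 by DESeq2, by the block and by the compared groups alone, against 5. Depth limits Alox5, at 2 to 21 counts per library.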
